A study of Mus musculus with 6 samples.

Results

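The interferon beta gene Ifnb1, 7 interferon regulatory factor genes (Irf1, Irf2, Irf3, Irf5, Irf7, Irf8 and Irf9) and Stat2 were followed in cells exposed to bacterial lipopolysaccharide (LPS). These 9 genes were taken by name, and each had 1 probe whose platform annotation named that symbol alone, so 9 of 16281 probes and 9 of the 9607 genes with a ratio on all 6 arrays are described. The cells were RAW 264.7, an established mouse line that resembles macrophages. Untreated cells cultured for 16 hours were compared with cells cultured for 16 hours with 100 ng/ml LPS and 100 pM LPS-binding protein, which carries LPS towards its receptor. Total RNA of both conditions was hybridised together on 6 dual-colour arrays, 3 with the treated RNA in Cy5 and 3 with it in Cy3, each orientation holding sets 1, 2 and 3. Separate cultures per set are not stated in the labels, and p-values thus reflect spread among these samples that may be technical.

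Interferon beta is secreted by macrophages after LPS reaches Toll-like receptor 4 and the adaptor TRIF activates the kinase TBK1, which phosphorylates the constitutively present factor IRF3. The secreted protein binds the receptor chains IFNAR1 and IFNAR2, and the kinases TYK2 and JAK1 then phosphorylate STAT2. STAT2 and IRF9 are subunits of the complex ISGF3, which binds interferon-stimulated response elements (ISRE), and IRF7 is among the genes so induced and can itself drive type I interferon genes.

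Promoter windows were read from RefSeq (GRCm38.p6, 250 bases before to 50 after a transcript start) for all 9 genes, 12 windows in all. They are shown because the DNA-binding products of these genes and the NF-kappaB factors act through short motifs that can be read in them. On both strands the windows were searched for an ISRE core (GAAA, any 2 bases, GAAA), a STAT-binding GAS element (TTCNNNGAA), a kappaB form (GGGA, any 2 bases, TTCC) and an IRF core (AANNGAAA), the last chosen after seeing the Ifnb1 window. ISRE cores also hold an IRF core. The stretches below, 100 bases each, run 5′ to 3′ along the gene's strand, with every matched motif in capitals. They lie at chr4:88522878-88522977 (minus strand), chr11:53769878-53769977 (plus), chr8:120736150-120736249 (plus), chr10:128270248-128270347 (plus), chr8:46739495-46739594 (plus) and chr7:141266425-141266524 (minus).
Ifnb1: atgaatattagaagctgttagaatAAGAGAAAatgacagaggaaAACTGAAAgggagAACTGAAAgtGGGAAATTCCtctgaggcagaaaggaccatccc
Irf1: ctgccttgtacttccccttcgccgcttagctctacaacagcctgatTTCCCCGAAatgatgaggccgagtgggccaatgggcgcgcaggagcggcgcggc
Irf8: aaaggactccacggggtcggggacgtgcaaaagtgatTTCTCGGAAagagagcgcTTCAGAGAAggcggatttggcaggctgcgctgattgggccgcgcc
Stat2: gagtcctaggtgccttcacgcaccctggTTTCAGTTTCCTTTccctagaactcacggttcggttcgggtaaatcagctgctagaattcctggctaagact
Irf2: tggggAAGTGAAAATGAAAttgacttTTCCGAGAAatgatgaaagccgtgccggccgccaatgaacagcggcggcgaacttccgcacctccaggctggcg
Irf7: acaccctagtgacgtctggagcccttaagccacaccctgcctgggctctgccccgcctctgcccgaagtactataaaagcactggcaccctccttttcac

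In the Ifnb1 stretch, 3 IRF cores, at bases -159 to -152, -139 to -132 and -126 to -119 from the transcript start, stood just before a kappaB form at -116 to -107. Irf1 had a GAS element at -90 to -82, and Irf8 had GAS elements at -171 to -163 and -153 to -145. Stat2 had an ISRE core on the opposite strand at -222 to -213 that overlaps 2 IRF cores. Irf2 had an ISRE core at -241 to -232, overlapping 2 IRF cores, and a GAS element at -224 to -216. The windows of Irf3, Irf5, Irf7 and Irf9, and the further starts of Irf1 and Irf8, held none of these letters, and for Irf7 the 100 bases before the start are shown. Over all 32841 windows of the same length, 3.44% held the ISRE core, 8.3% the GAS element, 1.47% the kappaB form and 23.9% the IRF core. These matches are a description of letters and not of binding.

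**Figure D1:**
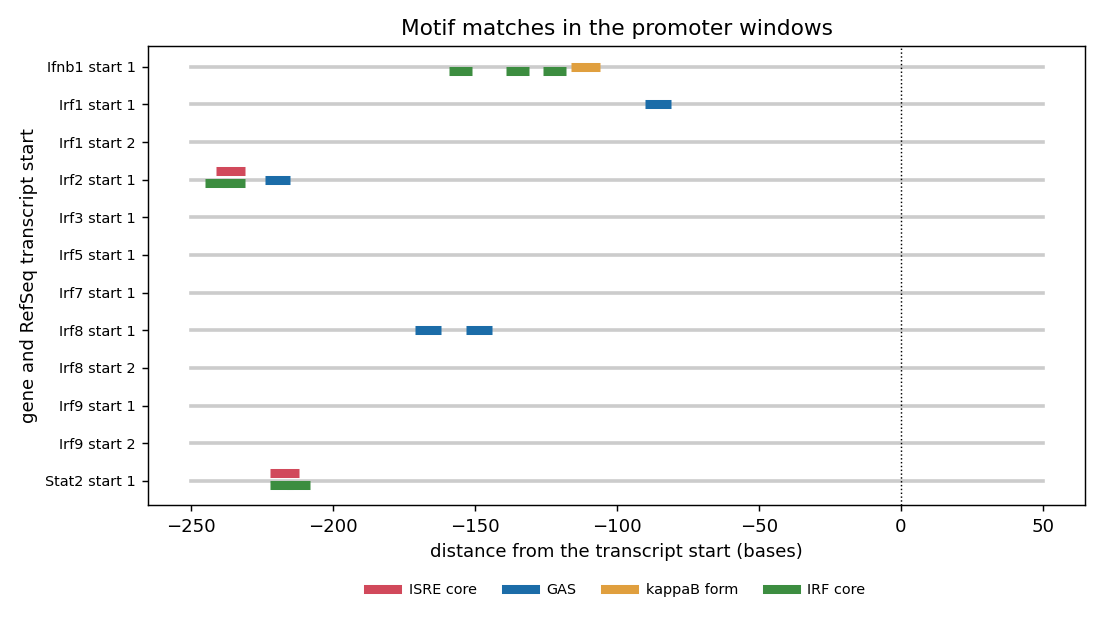
Positions of motif matches (coloured bars) in the 12 RefSeq windows of the 9 genes (rows), by distance in bases from the transcript start at 0. The 3 IRF cores and the kappaB form of Ifnb1 lie between -159 and -107, and 7 windows carry no match.

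Ratios are given as log2 of treated over untreated, with each array turned by its dye. Which channel is the numerator is unstated; Cy5 over Cy3 was assumed, a likely choice since the labels name whichever RNA carried Cy5 as test, treated or untreated, and whichever carried Cy3 as control. The orientations had opposite signs before turning (r from -0.85 to -0.62 across probes), which shows that the table was not turned already and nothing about its direction. With Cy3 over Cy5 every sign, and every rank from the top, would turn. Scale and centring by the authors are not described. Every deposited column had a median of 0 with its exact zeros counted, and of -0.0024 to 0.027 without them. A set's value is the mean of its 2 orientations, errors are SD over the 3 sets, and adjusted p-values are from limma over all 9607 genes with 0.05 as the threshold. Ratios carry no level, so no gene's abundance is compared with another's, and more RNA per responding cell cannot be told apart from more responding cells. The labelled cell type could not be checked by level either. Of the macrophage markers 8 had ratios, of which 6 rose, 1 fell (Csf1r, log2 -0.27 ± 0.08, SD, n = 3, adjusted p = 0.0285) and 1 did not pass, and of 13 markers of lymphoid and other cells 3 rose and 0 fell, where 16.8% of all genes rose and 14.6% fell. Csf1r was not called when set 1 or set 2 was left out (log2 -0.30 and -0.22) or on the Cy5 arrays alone (-0.24). Fcgr1 (log2 2.13) and Adgre1 (1.79) led the macrophage markers, and Mrc1 stood at 0.13. Pecam1 (0.39) and Cd79a (0.35; not called on the Cy5 arrays alone, at 0.31, adjusted p = 0.127) led the other markers, while Epcam (-0.07) and Col1a1 (-0.14) stood lowest. What part marker changes play in the ratios below was not tested.

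In treated cells 7 of the 9 genes rose and 0 fell, against 16.8% of all genes called up, 14.6% called down and 31.4% called in either direction. Ifnb1 rose 8.39-fold, Irf7 5.5-fold and Stat2 3.05-fold. Smaller rises were those of Irf9 (1.77-fold), Irf8 (1.44-fold), Irf1 (1.43-fold) and Irf5 (1.32-fold). Irf3 and Irf2 did not pass the test. The median over the 9 genes was log2 0.52, against -0.01 over all genes. Of the 9 genes, the 7 risers alone were above 0 on each of the 6 arrays, against 18.6% of all genes. The calls came from these same arrays, so this is no separate support for them. Adjusted over the 13418 probes in place of genes, 7 of the 9 probes were called, against 30.8% of all probes.

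**Figure D2:**
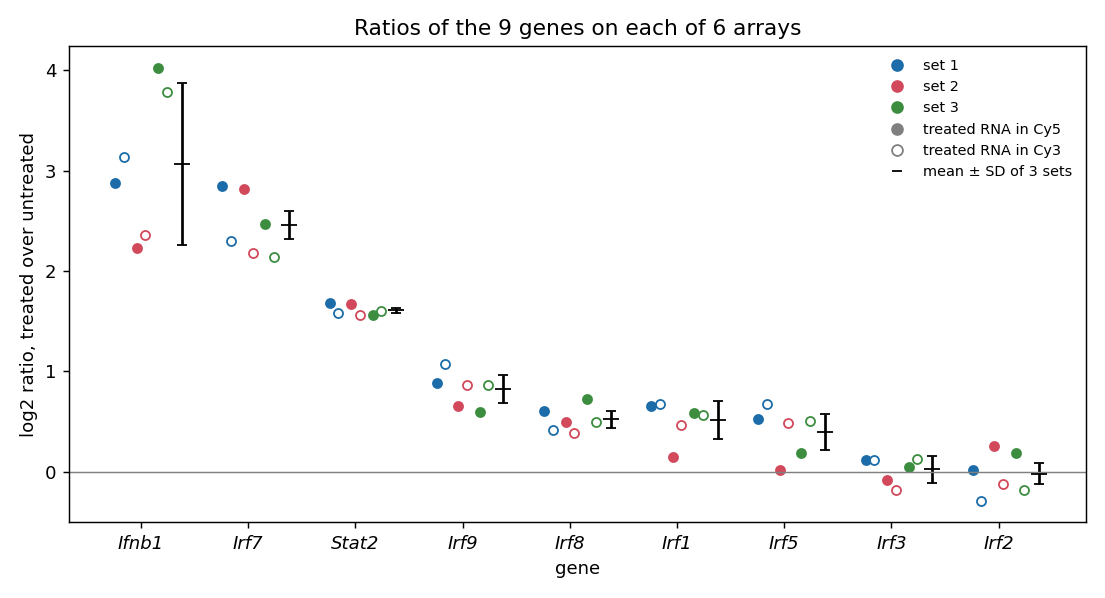
Log2 ratio of treated over untreated cells (vertical axis) for each of the 9 genes (horizontal axis, in order of their mean) on each array; colours are the sets, filled points have the treated RNA in Cy5 and open points in Cy3, and the black bar is the mean ± SD of 3 sets. Ifnb1 spreads from 2.23 to 4.03 while Stat2 stays between 1.56 and 1.68, and Irf2 lies above 0 in one orientation and below it in the other.

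The ligand gene was the most changed of the 9. With treated RNA in Cy5, Ifnb1 stood at log2 2.88, 2.23 and 4.03 in sets 1, 2 and 3, and with treated RNA in Cy3 at 3.13, 2.36 and 3.79. Both orientations thus gave set 3 the highest and set 2 the lowest ratio, and on single arrays the fold ran from 4.68 to 16.3. The mean was log2 3.07 ± 0.81 (SD, n = 3, adjusted p = 0.000247), with a 95% interval of 2.44 to 3.70. In the assumed direction it was the 43rd highest of the 9607 genes, and its SD was the 62nd largest. Among the 112 genes above log2 2 only 4 had a larger SD.

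Irf7, the factor that amplifies type I interferon expression, was the next in size. It stood at 2.85, 2.82 and 2.47 with treated RNA in Cy5 and at 2.30, 2.17 and 2.14 in Cy3, so that each set's Cy5 array gave the larger ratio. The mean of log2 2.46 ± 0.14 (SD, n = 3, adjusted p = 3.75e-06) ranked 71st. The orientations differed by 0.51 (SE 0.14; dye term unadjusted p = 0.00602 and adjusted p = 0.164 in limma), which did not pass over all genes. Array values of Ifnb1 and Irf7 overlapped, so their order does not hold beyond the spread.

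The ISGF3 subunits Stat2 and Irf9 rose by unequal amounts. Stat2, the subunit that carries the transactivating domain, stood at 1.68, 1.67 and 1.56 with treated RNA in Cy5 and at 1.58, 1.56 and 1.60 in Cy3. Its mean of log2 1.61 ± 0.02 (SD, n = 3, adjusted p = 1.16e-05) had the smallest SD of the 9 genes. Irf9, the DNA-binding subunit, stood at 0.89, 0.65 and 0.59 in Cy5 and at 1.07, 0.86 and 0.86 in Cy3. Here the Cy3 array of every set gave the larger ratio, and the mean was log2 0.82 ± 0.14 (SD, n = 3, adjusted p = 0.000457). Every array value of Stat2 lay above every value of Irf9 and below every value of Irf7.

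Irf8, Irf1 and Irf5 rose by 1.32-fold to 1.44-fold. Irf8, a factor needed for the development of macrophages, stood at 0.61, 0.50 and 0.73 with treated RNA in Cy5 and at 0.41, 0.39 and 0.50 in Cy3, with a mean of log2 0.52 ± 0.09 (SD, n = 3, adjusted p = 0.00209). Irf1, an interferon-inducible activator, stood at 0.65, 0.15 and 0.59 in Cy5 and at 0.68, 0.46 and 0.57 in Cy3, set 2 being lowest in both. Its mean was log2 0.52 ± 0.19 (SD, n = 3, adjusted p = 0.00528). Irf5, a factor that activates inflammatory cytokine genes in macrophages, was at 0.52, 0.02 and 0.19 in Cy5 and at 0.68, 0.49 and 0.51 in Cy3. The mean of log2 0.40 ± 0.18 (SD, n = 3, adjusted p = 0.0136) was 0.30 without set 1 and was then not called (adjusted p = 0.0811). Nor was it called on the Cy5 arrays alone (0.24, adjusted p = 0.217) or with exact zeros kept as ratios, where the mean stayed 0.40 (adjusted p = 0.0662). Array values of Irf9, Irf8, Irf1 and Irf5 overlapped between neighbours in this order.

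Irf3 and Irf2 stood near 0. Irf3, the factor that TBK1 activates by phosphorylation, was at 0.11, -0.08 and 0.05 with treated RNA in Cy5 and at 0.11, -0.18 and 0.12 in Cy3. The mean was log2 0.02 ± 0.13 (SD, n = 3, adjusted p = 0.883), and the 95% interval of its fold ran from 0.89 to 1.16. Irf2, which can repress genes that IRF1 activates, was at 0.02, 0.26 and 0.18 in Cy5 but at -0.29, -0.12 and -0.18 in Cy3. The orientations thus lay on opposite sides of 0, and the mean was log2 -0.02 ± 0.11 (SD, n = 3, adjusted p = 0.886), with a fold interval of 0.87 to 1.12. Phosphorylation of IRF3 is outside this measurement.

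**Figure D3:**
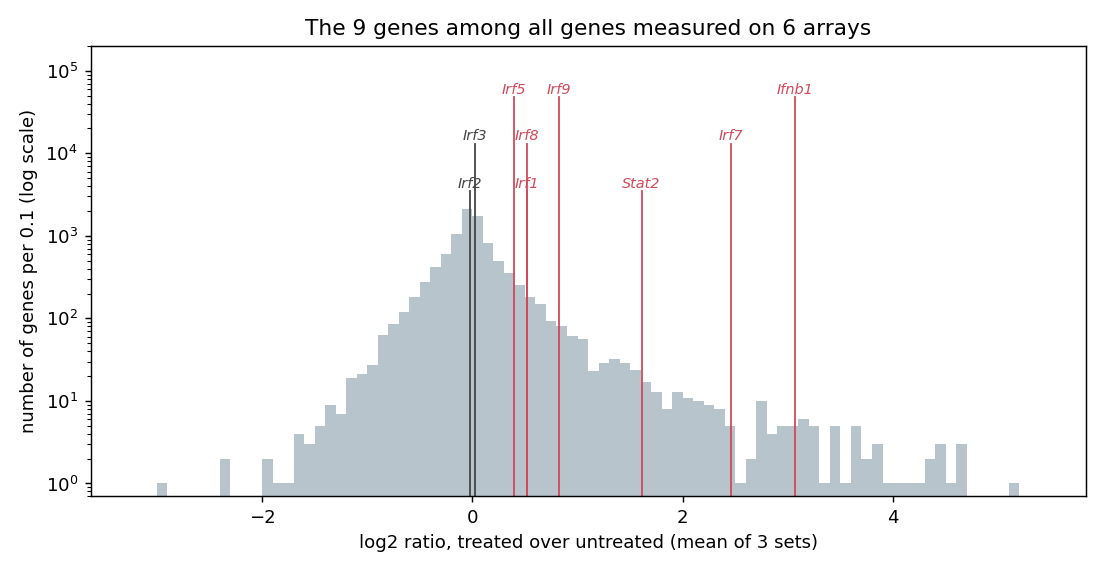
Number of genes (vertical axis, log scale) by log2 ratio of treated over untreated cells (horizontal axis, bins of 0.1, mean of 3 sets) for the 9607 genes, with the 9 genes as vertical lines of arbitrary height, red where called by limma and dark where not. Ifnb1, Irf7 and Stat2 sit in the right tail at 3.07, 2.46 and 1.61, and Irf3 and Irf2 at the centre.

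The set-to-set spread of Ifnb1 was larger than that of any other of the 9 genes. From set 2 to set 3 Ifnb1 differed by 1.61, a gap that 38 of the 9607 genes exceeded, while 152 genes had a gap above 1. For Irf7, Irf9 and Stat2 the same gap was -0.19, -0.03 and -0.03, and for Irf1 and Irf8 it was 0.27 and 0.17. The median of the 33 measured interferon-stimulated genes was 2.16, 1.76 and 2.43 in sets 1, 2 and 3. Those medians have the order of Ifnb1, but the single genes differed. Rsad2 stood at 4.07, 4.75 and 4.32 in these sets and Ifit2 at 3.89, 3.83 and 3.75. Trim30a, at 2.99, 2.36 and 3.74, had the order of Ifnb1. Set 2 was the lowest set for 16 of these 33 genes, against 3690 of all 9607 genes. Set 3 was the highest set for 16 of these 33 genes (48.5%), against 33.6% of all genes and 34.9% of the genes called up. The same share was 66.7% among the ligand and receptor genes and among the inducers of interferon beta described below, and 22.2% among the 9 genes. The ligand and receptor genes highest in set 3 were the 10 that did not pass the test, with means from -0.06 to 0.22. None of the 5 called ligand and receptor genes was highest in that set. The arrays share 3 sets, so these are descriptions without a test.

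**Figure D4:**
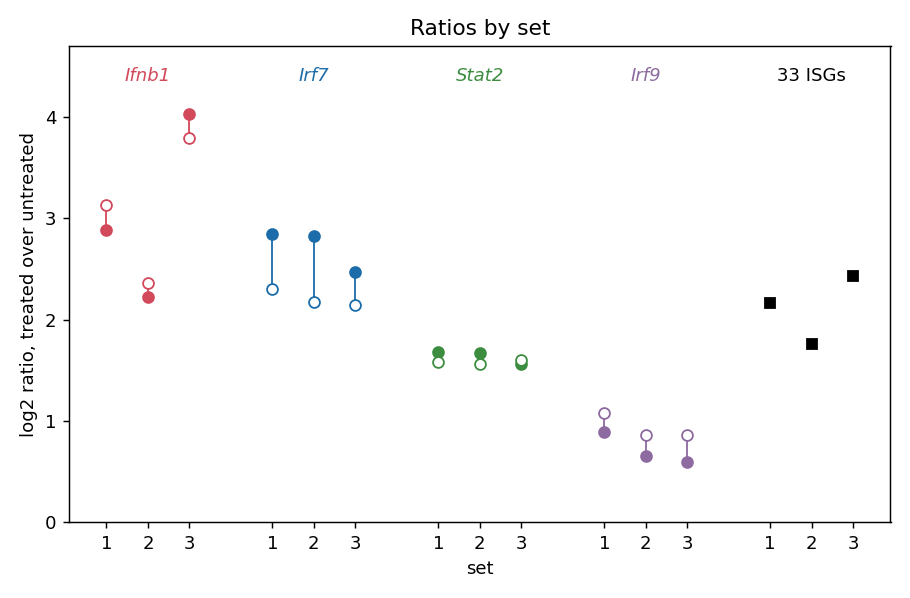
Log2 ratio of treated over untreated cells (vertical axis) by set (horizontal axis) for Ifnb1, Irf7, Stat2 and Irf9, filled where the treated RNA was in Cy5 and open where in Cy3, with a line joining the arrays of a set; black squares are medians of 33 interferon-stimulated genes. Ifnb1 is highest in set 3 and lowest in set 2, as are the squares (2.43 and 1.76), while Stat2 is level. The squares hide that the order of the sets differs among the 33 genes.

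By Euclidean distance over the 6 array ratios, the genes nearest to Ifnb1 were Trim30a (distance 0.44), Gm8989 (1.03), Cmpk2 (1.03), Ifit1 (1.11) and Rgs1 (1.44). Trim30a, whose probe may bind related Trim30 genes, had set means that ran in the same order, with a mean of log2 3.03 ± 0.69 (SD, n = 3, adjusted p = 0.000136). Rgs1 was the most variable of these (log2 2.81 ± 1.25) and lost its call with robust variance moderation (adjusted p = 0.0844) and with exact zeros kept (adjusted p = 0.0574). Nearest to Irf7 were the scavenger receptor gene Msr1 (0.40), the checkpoint ligand gene Cd274 (0.43), the protease inhibitor gene Slpi (0.52), Batf (0.57) and Tnfrsf1b (0.58). Msr1 stood at log2 2.35 ± 0.01 over the set means, with single arrays from 1.98 to 2.76. In all 5 of these genes, as in Irf7, the Cy5 array was the higher in each set. The distance was taken over these same arrays. Likeness here means similar ratios on these 6 arrays and nothing further.

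No other measured type I interferon gene passed the test. Of 15 measured ligand and receptor genes, 4 rose, 1 fell and 10 did not pass, with a median of log2 0.16; the 5 called are close to the background of 31.4%. The 9 measured genes of the alpha family, Ifnab included, were all among the 10 that did not pass and lay between -0.02 (Ifna15) and 0.22 (Ifna5). These genes are near-identical copies, so their probes may not tell them apart. Ifng, encoding interferon gamma, was at -0.06 ± 0.05 (adjusted p = 0.591). Both chains of the type I receptor rose, Ifnar2 by 0.45 ± 0.17 and Ifnar1 by 0.41 ± 0.17 (SD, n = 3, adjusted p = 0.00803 and 0.0113). Without set 1 neither was called (adjusted p = 0.0514 and 0.0729), and Ifnar1 was not called without set 2 (0.055) or with exact zeros kept (0.0567) either. The interleukin receptor chain gene Il10rb rose by 0.44 ± 0.18, a call lost without set 1, on the Cy5 arrays alone and with exact zeros kept (adjusted p = 0.0544, 0.0641 and 0.0544). The interferon gamma receptor chains went opposite ways, Ifngr2 at 0.34 ± 0.10 and Ifngr1 at -0.36 ± 0.10 (adjusted p = 0.0127 and 0.0105), and Ifngr1 lost its call on the Cy3 arrays alone (-0.21, adjusted p = 0.133).

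Of 9 measured kinases and further STAT and IRF factors, 6 rose and 0 fell, with a median of log2 0.48, beside the 16.8% of all genes called up. Jak2 led at 1.07 ± 0.26 (SD, n = 3, adjusted p = 0.000468), its probes standing at 1.06 and 1.09. Jak3, a kinase of common gamma chain receptors, rose by 0.68 ± 0.05. Of the kinases tied to the type I receptor, Tyk2 rose by 0.67 ± 0.17 (adjusted p = 0.00144), and Jak1 stood at 0.21 ± 0.04 and missed the threshold (adjusted p = 0.0554). Taking the 6 arrays as separate values called Jak1 (adjusted p = 0.0157). Stat3 rose by 0.48 ± 0.18 (adjusted p = 0.00621), less than Stat2. Stat4 (0.07) and Stat5b (-0.20) did not pass, though Stat5b was called down on the Cy5 arrays alone (-0.40, adjusted p = 0.0395) and in the 6-array model with a dye term (adjusted p = 0.0472).

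Among 15 measured genes listed for the induction of Ifnb1, 9 rose, 0 fell and 6 did not pass, with a median of log2 0.89. Again 16.8% of all genes rose. What part the listed genes play in the rise of Ifnb1 was not tested. The nucleic acid sensors Zbp1 (3.69 ± 0.32) and Ifih1 (2.73 ± 0.26) rose most. Zbp1 averaged 4.05 with treated RNA in Cy5 and 3.33 in Cy3. Tbk1 rose by 0.37 ± 0.05 (adjusted p = 0.00705; 0.0659 on the Cy5 arrays alone). The related kinase gene Ikbke, named after its values were seen, had a mean of 1.05 ± 0.09 from probes that disagreed, at 2.17 and -0.07. Rela (-0.12 ± 0.14) and Jun (-0.25 ± 0.21), whose products bind the Ifnb1 enhancer, did not pass (adjusted p = 0.358 and 0.0851), though Jun was called down without set 3 (-0.33, adjusted p = 0.0258).

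**Figure D5:**
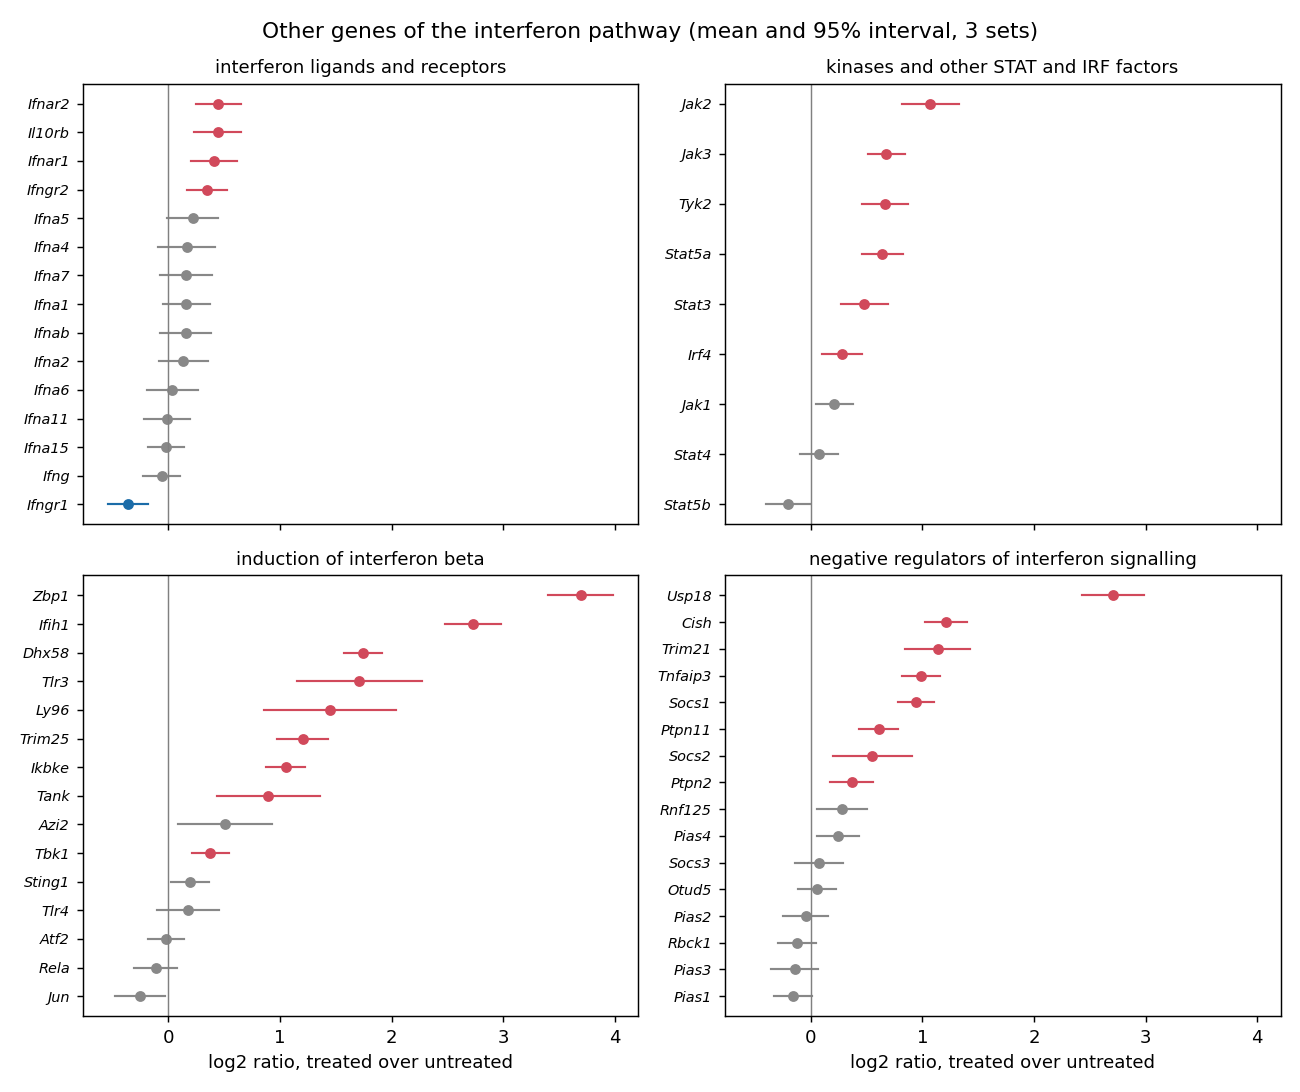
Mean log2 ratio of treated over untreated cells (horizontal axis) with its 95% interval from limma over 3 sets, for the measured genes (rows) of 4 groups: ligands and receptors, kinases and factors, inducers of interferon beta, and negative regulators. Red genes were called up, blue down and grey neither; the interferon alpha genes stand close to 0 and Zbp1 is the highest at 3.69.

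Negative regulators of the pathway rose in 8 of 16 cases and fell in 0, with a median of log2 0.32; of all genes 16.8% rose and 14.6% fell. Usp18, which displaces JAK1 from IFNAR2, rose 6.54-fold (2.71 ± 0.30, adjusted p = 1.21e-05). Socs1, an inhibitor of JAK kinases, rose by 0.95 ± 0.01 (adjusted p = 0.000114), and Cish by 1.21 ± 0.12. The SD leaves out differences between probes, which stood at 1.05 and 0.84 for Socs1 and at 1.55 and 0.88 for Cish. The STAT inhibitors Pias3 (-0.14 ± 0.18) and Pias1 (-0.16 ± 0.07) did not pass, Pias1 being called down on the Cy3 arrays alone (-0.29, adjusted p = 0.0376).

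Of 33 measured interferon-stimulated genes, 31 rose, 1 fell and 1 did not pass (16.8% and 14.6% of all genes rose and fell), and their median of log2 2.07 lay between the ratios of Stat2 and Irf7. Rsad2 (4.38 ± 0.34) and Ifi204 (4.07 ± 0.23), whose probe may bind related Ifi200 genes, rose most. Rsad2 averaged 5.11 with treated RNA in Cy5 and 3.65 in Cy3, where Ifi204 averaged 4.10 and 4.04, so their order turned with the dye. The orientations of Rsad2 differed by 1.46 (SE 0.27; dye term unadjusted p = 0.000592 and adjusted p = 0.0816 in limma). The exceptions were Ifi27, which fell by 1.47 on the log2 scale (SD 0.16, adjusted p = 4e-05), and Cxcl9, a chemokine gene typical of interferon gamma responses, at 0.12 ± 0.07 (adjusted p = 0.263).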

How the data were processed

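Log2 ratios of the 2 channels of each of 6 arrays were used as deposited; that they are log2 values was read from their signs and range, while the authors' tools, background correction and normalization were not given in the sources used here. Exact zeros, 9.56% to 12.9% of probes per array, were taken as missing. Ratios were turned to treated over untreated by the dye in the labels. Of 16281 probes, 13738 named 1 gene symbol, 52 several and 2491 none. Of the 13418 probes complete on all 6 arrays, the 11639 with 1 symbol were averaged per gene (9607 genes). The 2 orientations of a set were averaged, and limma 3.58.1 compared the 3 set values with 0 (lmFit, eBayes, two-sided, Benjamini-Hochberg) in R 4.3.3. The fit was also run on simulated independent normal values, which lack the dye and set structure of these data. Depth does not apply to arrays, whose number limits the precision.

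Named beyond the 9 genes are, from each list of pathway genes or markers, the 2 with the largest and the 2 with the smallest ratio, genes fixed by name (Stat3, Ifnar1, Ifnar2, Jak1, Tyk2, Tbk1, Socs1 and Usp18), the 5 genes nearest to Ifnb1 and to Irf7, and a few exceptions. The 9 genes and the lists were chosen with earlier results of these data known. Alternatives covered the set and dye structure, exact zeros, centring, normalization, variance moderation and the probe summary.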

Additional observations from a re-analysis of the deposited data

Results flagged for a closer look

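Irf2 stood out among the 9 genes because every array with treated RNA in Cy5 lay above 0 and every array with treated RNA in Cy3 lay below it. The orientations differed by 0.35 on the log2 scale (SE 0.12), with means of 0.15 and -0.20. The share of all genes split by sign in this way was not counted. In the lists of pathway genes and markers wider splits were those of Atf2 (means of -1.87 in Cy5 and 1.82 in Cy3), Cd8a (-0.36 and 0.39), Socs3 (-0.27 and 0.42) and Gzmb (0.31 and -0.16). In a limma model of 6 arrays with treatment and dye, the dye term of Irf2 had an unadjusted p of 0.0182 and an adjusted p = 0.23, and it passed in 35 of 9607 genes (0.364%) and in 0 of the 9 genes; unadjusted p lay under 0.05 for Irf2 and Irf7.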

How the results depend on the processing

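Under all 14 alternatives Ifnb1 (2.65 to 3.46), Irf7, Stat2, Irf9, Irf8 and Irf1 kept their direction and their call, the highest adjusted p in limma being 0.0455, for Irf1. Some alternatives left the ratios of the 9 genes unchanged by design, so direction could not turn there. These were the 6-array fits, robust variance moderation, exact zeros kept, ratios required in at least 2 sets, and the median of probes. Irf5 kept its direction and its call under 11 of 14. The count of the 9 genes called was 6 or 7 throughout, at 6 to 7 when a set was left out, and 5 to 7 of their probes were called. All genes called numbered 2103 to 3649 against 3018, and pathway genes called 52 to 65 against 60. Signs turned only in uncalled values: Irf2 to 0.15 on the Cy5 arrays alone and, leaving out a set each, -0.0668 to 0.0365; Irf3, likewise, -0.0236 to 0.10; Ifng (0.12), Stat4 (-0.0373), Stat5b (0.0012) and Jun (0.0011) on the Cy3 arrays alone; Rela (0.0218) on the Cy5 arrays alone; and Epcam, leaving out a set each, -0.14 to 0.0056. Arrays of one set deviated together in set 3 (r = 0.57), less in set 1 (0.22) and set 2 (0.08). Whether the arrays of a set share RNA is not stated. These correlations cannot decide it, as a set that differs little from the others would also give a low one. With no replicate block, the 6 arrays taken as separate values called 7 of the 9 genes and 3381 genes, and with the set as a random replicate block 7 and 3378. The block fit used a single within-set correlation of 0.0031 for all genes. It is thus nearly the fit without a block and no separate check of the sets. The ratios do not show how far a probe's signal stood above background.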

Other observations

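Several pathway probes lacked a ratio on some arrays and entered no comparison. The antiviral gene Oas1a had 5 ratios, between log2 1.95 and 2.41. A further probe of Ifit2 had 4 ratios, between 3.86 and 4.85, and one of Cxcl10 had 3, between 3.23 and 4.24. Further probes of Ifit1 (-1.65 and -1.08) and Isg15 (-0.67 and -0.0049) had 2 ratios each, below 0, while the complete probes of these genes stood at 3.11 and 3.76. The LPS co-receptor gene Cd14 had 5 ratios, between -0.15 and 0.03.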
